A study of Arabidopsis thaliana with 6 samples.

Results

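The plant defensin genes are a family of Arabidopsis thaliana genes named PDF, and 9 of them were taken by their row names (PDF1.1, PDF1.2A, PDF1.2B, PDF1.2C, PDF1.3 and PDF1.4 of class 1, and PDF2.1, PDF2.2 and PDF2.3 of class 2), out of 22759 named rows. RNA sequencing compared hrlp-2 seedlings, which carry a mutant allele of the RNA-binding protein gene HRLP, with wild-type seedlings of the Col accession (WT). Each group had 3 libraries, called biological replicates by the submitters. RNA came from the aerial parts of seedlings 9 days old, kept at 23 °C in long days of 16 h light, with no other treatment named. The labels name 1 mutant line and do not describe its lesion. The deposited values are reads per gene scaled to one library size (CPM), and their spacing put 1 CPM at 25.18, 19.95 and 21.72 reads in the hrlp-2 libraries and 23.53, 22.55 and 22.09 reads in the WT libraries.

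Plant defensins are small, secreted, cysteine-rich proteins, and many of them slow the growth of fungi. In Arabidopsis leaves, PDF1.2 is the standard reporter of the branch of defence that needs jasmonate and ethylene together: EIN3 and EIL1 switch on the factors ORA59 and ERF1, which bind the GCC box in its promoter. The MYC2 branch of jasmonate signalling and the salicylic acid pathway both act against it.

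The genes were chosen by their CPM in these same hrlp-2 and WT libraries, since several of them were already known to differ, so their values are given as a description, without a p-value. PDF1.2A (AT5G44420) and PDF1.2C (AT5G44430) lie on the minus strand of chromosome 5 of TAIR10.1, at 17906968 to 17907638 and 17908850 to 17909507, with 1211 bases between them. PDF1.3 (AT2G26010) and PDF1.2B (AT2G26020) lie on the plus strand of chromosome 2, at 11087280 to 11088001 and 11089123 to 11089805, with 1121 bases between them. The class 2 genes PDF2.2 (AT2G02100), PDF2.1 (AT2G02120) and PDF2.3 (AT2G02130) fill a plus-strand stretch of 12529 bases on chromosome 2, starting at 528179. PDF1.1 (AT1G75830) and PDF1.4 (AT1G19610) stand alone on chromosome 1, at 28472357 to 28472898 on the plus strand and 6781483 to 6782216 on the minus strand. Every one of the 9 gene models has 2 exons.

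The coding sequences of the 4 class 1 genes of the tandem pairs are shown because these are the genes that were low in hrlp-2, and because their likeness bears on how reads were assigned among them. They were read from the RefSeq annotation of TAIR10.1, 243 bases each from start to stop codon, 5′ to 3′. Capitals mark the bases that differ from PDF1.2A, of which there are 15 in PDF1.2B, 16 in PDF1.2C and 21 in PDF1.3.
PDF1.2A coding sequence: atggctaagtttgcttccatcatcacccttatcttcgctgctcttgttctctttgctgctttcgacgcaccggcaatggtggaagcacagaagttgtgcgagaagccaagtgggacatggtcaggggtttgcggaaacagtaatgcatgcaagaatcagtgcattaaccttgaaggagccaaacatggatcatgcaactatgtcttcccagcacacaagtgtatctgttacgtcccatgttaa
PDF1.2B coding sequence: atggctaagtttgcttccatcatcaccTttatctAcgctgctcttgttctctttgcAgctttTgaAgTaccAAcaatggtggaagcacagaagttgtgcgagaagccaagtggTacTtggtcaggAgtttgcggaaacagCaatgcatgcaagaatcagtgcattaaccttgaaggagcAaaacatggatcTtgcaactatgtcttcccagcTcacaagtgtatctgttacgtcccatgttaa
PDF1.2C coding sequence: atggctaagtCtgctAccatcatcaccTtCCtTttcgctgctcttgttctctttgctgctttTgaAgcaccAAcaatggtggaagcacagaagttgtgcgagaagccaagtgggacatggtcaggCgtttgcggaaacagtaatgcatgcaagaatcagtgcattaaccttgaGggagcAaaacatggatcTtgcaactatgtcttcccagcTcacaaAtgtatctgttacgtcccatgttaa
PDF1.3 coding sequence: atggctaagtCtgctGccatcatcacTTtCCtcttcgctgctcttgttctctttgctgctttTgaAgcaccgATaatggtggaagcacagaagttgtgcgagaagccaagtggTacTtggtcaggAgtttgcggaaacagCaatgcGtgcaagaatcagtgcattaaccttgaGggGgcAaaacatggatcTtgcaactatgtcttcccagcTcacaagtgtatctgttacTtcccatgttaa

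The closest pair by coding sequence was PDF1.2C and PDF1.3, on different chromosomes, at 94.7% identity, and the least alike of the 4 were PDF1.2A and PDF1.3 at 91.4%. Of the tandem pairs, PDF1.2A and PDF1.2C shared 93.4%, and PDF1.2B and PDF1.3 shared 94.2%. PDF1.1 followed at 87.2% to 90.5% identity with these 4 genes, PDF1.4 stood at 57.4% to 59.0%, and the class 2 genes at 48.5% to 51.7%. The class 2 genes shared 84.7% to 88.0% among themselves.

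**Figure D1:**
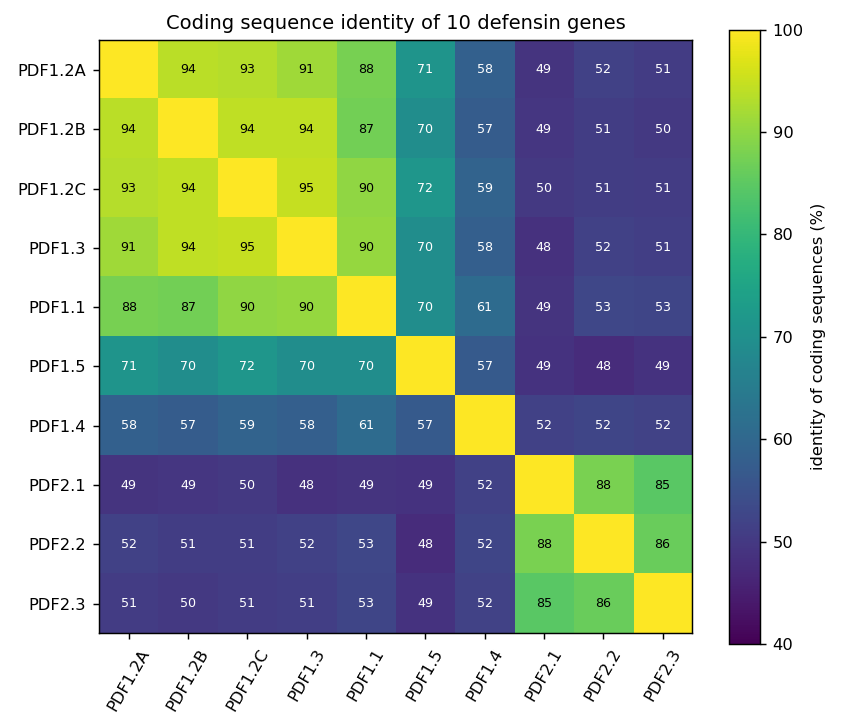
Percent identity of aligned coding sequences between 10 defensin genes of TAIR10.1, the 9 described here and PDF1.5, on a colour scale from 40 to 100%. PDF1.2A, PDF1.2B, PDF1.2C and PDF1.3 form a block above 91% and the class 2 genes a block above 84%, while PDF1.4 and PDF1.5 lie outside both.

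Along the spliced transcripts, 3 of the 50-base windows of PDF1.2A and of PDF1.2C were common to both genes, and 28 were common to PDF1.2B and PDF1.3. Windows of 50 bases found nowhere else in the genome made up 99.4% of PDF1.2A and of PDF1.2C, 95% of PDF1.2B and 95.1% of PDF1.3, and every 100-base window of the 9 genes was found once. The read length, the counter and its treatment of reads with several matches were not stated in any source used here, so the split of reads between the 2 genes of a pair is uncertain for shorter reads. Sums over the 4 genes, given below, do not depend on that split.

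The promoters of the same 4 genes are shown because the GCC box is the element through which PDF1.2 is known to be switched on. Each is the 250 bases before the annotated start of the gene in TAIR10.1 from RefSeq, on the gene's own strand, 5′ to 3′. They span 17907639 to 17907888 of chromosome 5 for PDF1.2A and 11088873 to 11089122 of chromosome 2 for PDF1.2B. The windows of PDF1.2C and PDF1.3 span 17909508 to 17909757 of chromosome 5 and 11087030 to 11087279 of chromosome 2. Capitals mark the GCC box, GCCGCC.
PDF1.2A promoter: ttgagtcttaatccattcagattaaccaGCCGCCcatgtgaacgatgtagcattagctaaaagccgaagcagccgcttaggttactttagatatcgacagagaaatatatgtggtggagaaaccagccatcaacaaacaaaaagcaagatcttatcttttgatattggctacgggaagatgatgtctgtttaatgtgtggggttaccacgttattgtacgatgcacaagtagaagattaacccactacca
PDF1.2B promoter: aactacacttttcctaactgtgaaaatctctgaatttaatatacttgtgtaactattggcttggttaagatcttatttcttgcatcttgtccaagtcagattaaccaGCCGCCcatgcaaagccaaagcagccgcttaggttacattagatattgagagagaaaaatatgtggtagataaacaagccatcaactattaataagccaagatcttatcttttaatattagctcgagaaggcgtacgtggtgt
PDF1.2C promoter: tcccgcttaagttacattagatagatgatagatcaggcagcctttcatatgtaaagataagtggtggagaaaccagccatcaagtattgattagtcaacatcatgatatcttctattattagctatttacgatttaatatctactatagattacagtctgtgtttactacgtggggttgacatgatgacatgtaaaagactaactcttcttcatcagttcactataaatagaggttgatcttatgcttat
PDF1.3 promoter: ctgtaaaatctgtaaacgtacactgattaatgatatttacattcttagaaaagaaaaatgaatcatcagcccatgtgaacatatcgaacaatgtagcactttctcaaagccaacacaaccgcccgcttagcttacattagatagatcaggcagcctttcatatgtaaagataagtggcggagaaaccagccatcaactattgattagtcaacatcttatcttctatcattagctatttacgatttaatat

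The GCC box was found in PDF1.2A, with its first base 222 bases before the annotated start, and in PDF1.2B, 143 bases before it. It was searched on both strands and was held by 1.9% of 27443 promoters of the same length. The windows of PDF1.2C and PDF1.3, the 2 class 1 genes PDF1.1 and PDF1.4 and the 3 class 2 genes did not hold these letters. The G-box, CACGTG, was in none of the 9 windows and in 6.5% of all promoters. TGACG was in the windows of PDF1.4 and PDF2.3 and in 18.6% of all promoters. TTGAC, the core of the W-box bound by WRKY factors, was found in PDF1.1, PDF1.2C, PDF1.3, PDF1.4, PDF2.1 and PDF2.3, and in 44.9% of all promoters, and it can overlap TGACG. The GCC box lies at different distances from the annotated starts of PDF1.2A and PDF1.2B, so the same position in their windows is not the same part of the promoter. Around the box the letters match, with tcagattaacca before it and catg after it in both windows. Bases farther upstream than these windows were not searched. Whether PDF1.2C, PDF1.3 or the other genes hold a GCC box there was not tested.

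HRLP itself, the mutated gene, measured 16.76, 17.03 and 15.88 CPM in the hrlp-2 libraries and 30.03, 33.04 and 30.37 CPM in the WT libraries. It was lower in every hrlp-2 library but remained present (log2 fold change -0.87, limma adjusted p = 3.99e-12). Within each group, libraries differed from each other by a median of 0.093 to 0.095 on the log2 scale over 18643 rows, so no library stood apart by this measure.

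In hrlp-2 the 4 class 1 genes of the tandem pairs were low, at 7.07% of their summed WT level, while the abundant class 2 genes PDF2.2 and PDF2.3 were slightly higher. The remaining 3 genes were at or near the limit of detection in both groups. Whether fewer cells made these transcripts or each cell held less of them cannot be told apart in RNA from whole aerial parts. Of the 9 genes, 6 had at least 0.5 CPM in at least 3 libraries and entered the fit over 18643 rows. PDF1.2B entered through the 3 WT libraries and 1 hrlp-2 library, PDF1.2C and PDF1.3 through the 3 WT and 2 hrlp-2 libraries, so their passing the filter rests mainly on the group where they were high.

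PDF1.2C, the most abundant of the 4 in WT, measured 0.12, 0.80 and 0.51 CPM in the hrlp-2 libraries, against 14.38, 13.79 and 11.36 CPM in the WT libraries. The groups were far apart, and the lowest hrlp-2 library rested on 3 reads by the estimate from the spacing of values. The means were 0.477 ± 0.341 and 13.18 ± 1.6 CPM (SD, n = 3 each), which puts hrlp-2 at 3.62% of WT. The log2 fold change on log2(CPM + 0.5) was -3.85 (SE 0.193), a scale that understates the change of a gene this low in one group. limma-voom on estimated reads gave -5.12.

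PDF1.2A, the reporter gene of the jasmonate and ethylene branch, measured 1.31, 0.95 and 0.64 CPM in the hrlp-2 libraries, against 12.80, 10.82 and 11.32 CPM in the WT libraries. It was the highest of the 4 in hrlp-2 by mean CPM. The means were 0.967 ± 0.335 and 11.65 ± 1.03 CPM (SD, n = 3 each), or 8.30% of WT, with a log2 fold change of -3.06 (SE 0.161). Per kilobase of transcript, which allows genes to be compared, its level averaged 1.67 ± 0.579 CPM/kb in hrlp-2 and 20.12 ± 1.78 CPM/kb in WT.

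PDF1.3, the upstream gene of the chromosome 2 pair, measured 0.56, 1.1 and 0.32 CPM in the hrlp-2 libraries, against 8.59, 9.62 and 7.79 CPM in the WT libraries. Its means were 0.660 ± 0.400 and 8.67 ± 0.917 CPM (SD, n = 3 each), or 7.62% of WT, and its log2 fold change was -3.02 (SE 0.191). PDF1.2B, its downstream neighbour, measured 0.44, 0.80 and 0.23 CPM in the hrlp-2 libraries, against 3.87, 2.97 and 2.76 CPM in the WT libraries. PDF1.2B was the weakest of the 4 in WT and, by mean CPM, the least reduced, on few reads in hrlp-2. Its means were 0.490 ± 0.288 and 3.2 ± 0.59 CPM (SD, n = 3 each), or 15.3% of WT, and its log2 fold change was -1.92 (SE 0.220). The added 0.5 CPM understates this change too, and limma-voom on estimated reads gave -2.81 for PDF1.2B and -3.84 for PDF1.3.

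**Figure D2:**
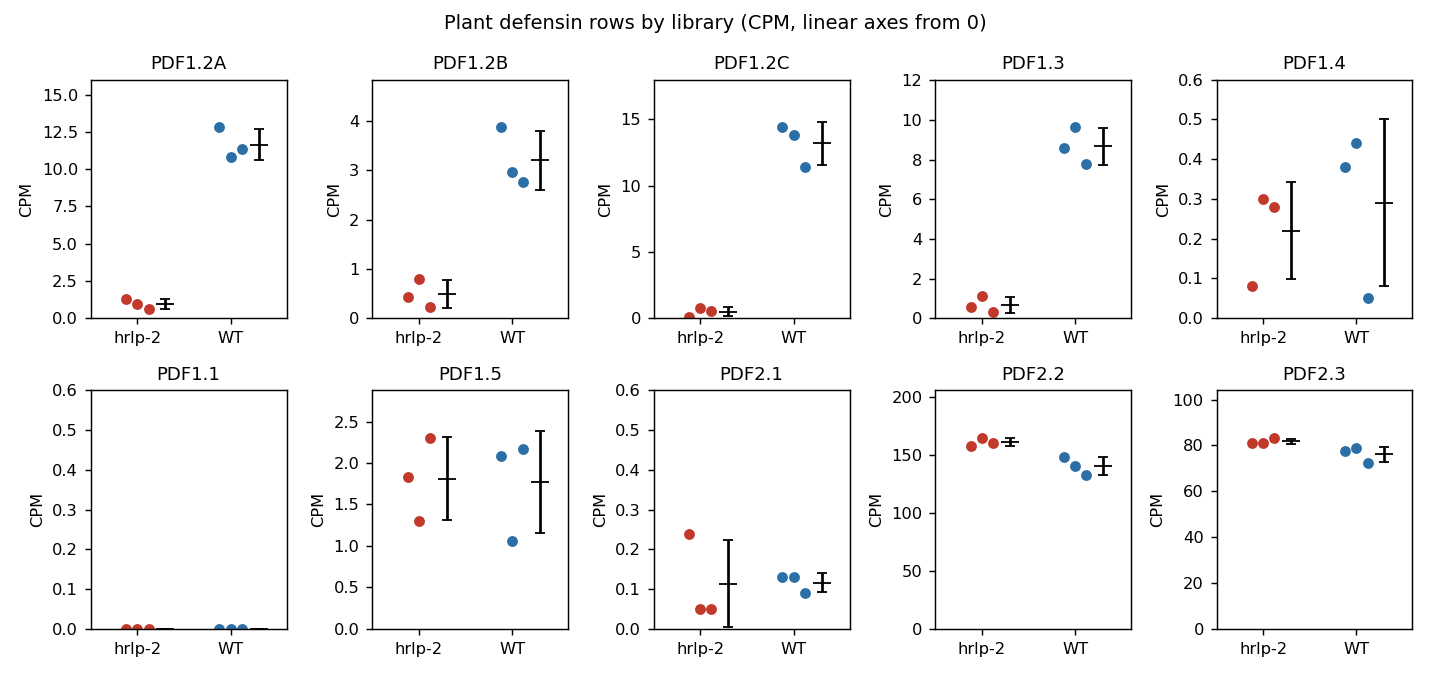
CPM of 10 defensin rows in each library, with hrlp-2 (red) left of WT (blue) and the mean ± SD of 3 libraries beside each group; linear axes start at 0 and differ between panels. PDF1.2A, PDF1.2B, PDF1.2C and PDF1.3 are low in all hrlp-2 libraries, PDF2.2 and PDF2.3 are slightly higher there, and the groups overlap for PDF1.4, PDF1.5 and PDF2.1, with PDF1.1 at 0 throughout.

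The hrlp-2 values of these 4 genes stand on few reads. PDF1.2A had about 33, 19 and 14 reads in hrlp-2 and 301, 244 and 250 in WT. PDF1.2B had about 11, 16 and 5 reads in hrlp-2 and 91, 67 and 61 in WT. PDF1.2C had about 3, 16 and 11 reads in hrlp-2 and 338, 311 and 251 in WT, and PDF1.3 had about 14, 22 and 7 in hrlp-2 and 202, 217 and 172 in WT. All 12 hrlp-2 values of the 4 genes lay on whole-read steps within 0.0051 CPM. The 95% exact Poisson interval of PDF1.2C in hrlp-2 replicate 1 ran from 0.0246 to 0.348 CPM and that in hrlp-2 replicate 2 from 0.458 to 1.3 CPM, so these replicates differed by more than counting error. The same interval in WT replicate 3, the lowest WT library for this gene, ran from 10 to 12.9 CPM. These intervals cover counting error only.

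**Figure D3:**
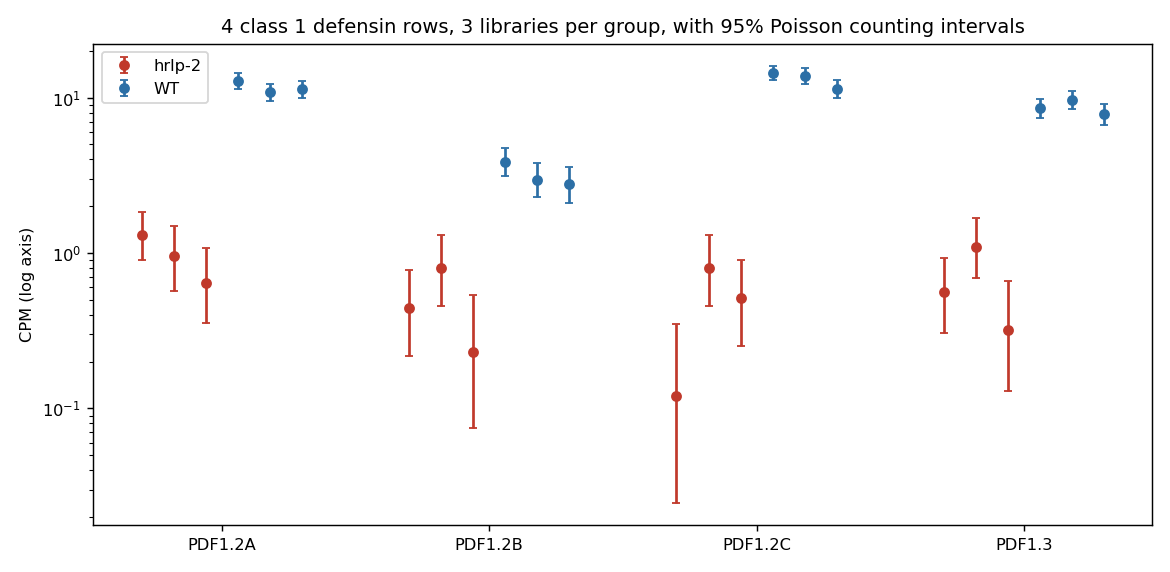
CPM on a log axis of the 4 class 1 genes of the tandem pairs in each library, replicates 1 to 3 in order, with hrlp-2 (red) left of WT (blue) and bars giving the 95% exact Poisson interval of the estimated reads. No hrlp-2 interval reaches a WT interval, and the hrlp-2 intervals are wide: that of PDF1.2C in replicate 1 runs from 0.0246 to 0.348 CPM.

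Summed over the 4 genes, the level was 2.43, 3.65 and 1.7 CPM in the hrlp-2 libraries and 39.64, 37.20 and 33.23 CPM in the WT libraries. The means were 2.59 ± 0.985 and 36.69 ± 3.24 CPM (SD, n = 3 each), and the log2 ratio of the sums was -3.87. The chromosome 5 pair summed to 1.44 ± 0.3 CPM in hrlp-2 and 24.82 ± 2.26 CPM in WT, a log2 ratio of -4.10. The chromosome 2 pair summed to 1.15 ± 0.687 CPM in hrlp-2 and 11.87 ± 1.14 CPM in WT, a log2 ratio of -3.52. Both loci were thus low in hrlp-2. Over the hrlp-2 libraries, the SD on the log2 scale was 0.306 for the chromosome 5 pair and 0.898 for the chromosome 2 pair. The difference between their log2 ratios was not tested.

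The share of each gene in the 4-gene sum rests on few reads in hrlp-2. PDF1.2C held 4.94%, 21.9% and 30% of their sum in the hrlp-2 libraries and 36.3%, 37.1% and 34.2% in the WT libraries. PDF1.2B held 18.1%, 21.9% and 13.5% in the hrlp-2 libraries and 9.76%, 7.98% and 8.31% in the WT libraries. For both genes the groups did not overlap, but in hrlp-2 these shares stand on 3 to 16 reads per library, and no difference is read from them. The shares of PDF1.3 (18.8% to 30.1% in hrlp-2 and 21.7% to 25.9% in WT) and of PDF1.2A (26.0% to 53.9% in hrlp-2 and 29.1% to 34.1% in WT) overlapped. With 3 libraries a group, an exact permutation test of 1 such value cannot give a p below 0.1.

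**Figure D4:**
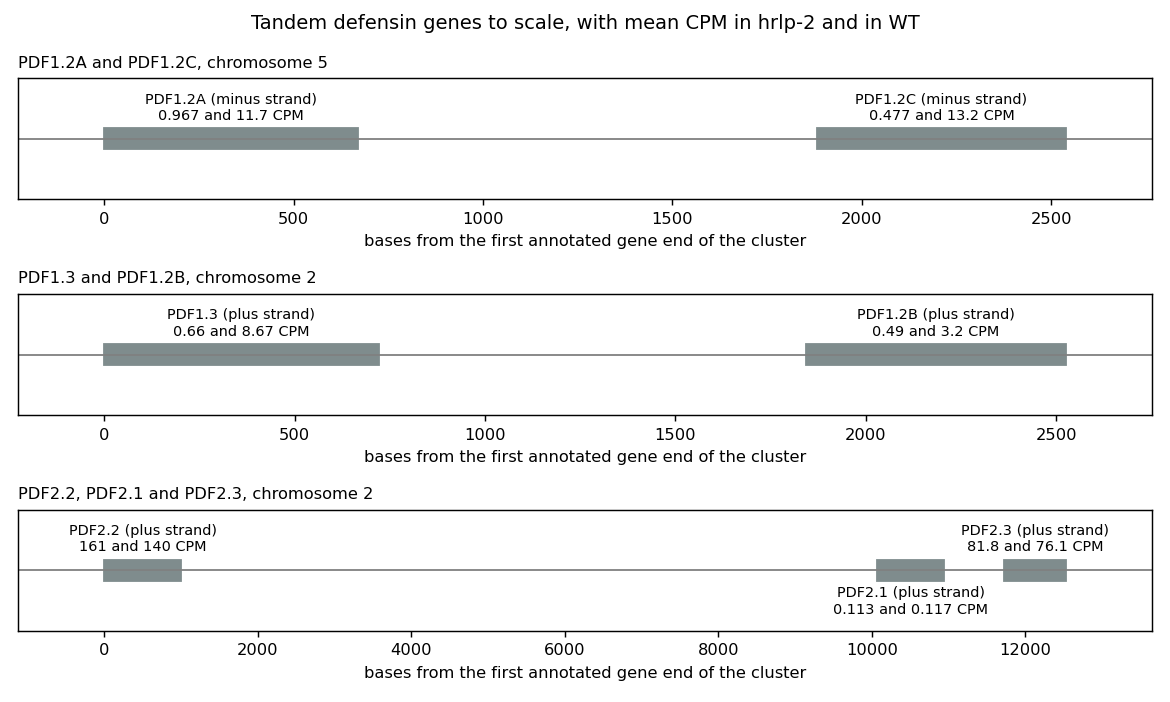
Gene models of the tandem defensin clusters drawn to scale, in bases from the first annotated gene end of each cluster, with the mean CPM in hrlp-2 and then in WT (n = 3 each) at each gene. The chromosome 5 pair and the first chromosome 2 pair hold the 4 class 1 genes that are low in hrlp-2, and the class 2 cluster holds PDF2.1, at 0.113 and 0.117 CPM, between its abundant neighbours.

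PDF2.2, the most abundant defensin row, measured 157.72, 164.49 and 160.63 CPM in the hrlp-2 libraries, against 148.56, 140.36 and 132.31 CPM in the WT libraries. Every hrlp-2 library lay above every WT library. The means were 160.9 ± 3.40 and 140.4 ± 8.13 CPM (SD, n = 3 each), with a log2 fold change of 0.22 (SE 0.0346). PDF2.3 measured 81.12, 81.12 and 83.19 CPM in the hrlp-2 libraries, against 77.36, 78.67 and 72.29 CPM in the WT libraries. Its groups did not overlap either, its means were 81.81 ± 1.2 and 76.11 ± 3.37 CPM (SD, n = 3 each), and its log2 fold change was 0.12 (SE 0.0387). PDF2.2 stood at 1.94, 2.03 and 1.93 times PDF2.3 in the hrlp-2 libraries and at 1.92, 1.78 and 1.83 times in the WT libraries.

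Per kilobase of transcript the order of levels in hrlp-2 was PDF2.2 (213.7 ± 4.51 CPM/kb), PDF2.3 (115.7 ± 1.69), PDF1.2A (1.67 ± 0.579), PDF1.3 (1.07 ± 0.644), PDF1.2C (0.870 ± 0.623), PDF1.2B (0.805 ± 0.473), PDF1.4 (0.355 ± 0.196) and PDF2.1 (0.194 ± 0.188). From PDF1.2A on, the mean ± SD of each gene in hrlp-2 overlapped that of the next in the order. In WT the order was PDF2.2 (186.5 ± 10.8 CPM/kb), PDF2.3 (107.6 ± 4.77), PDF1.2C (24.05 ± 2.92), PDF1.2A (20.12 ± 1.78), PDF1.3 (13.98 ± 1.48), PDF1.2B (5.26 ± 0.968), PDF1.4 (0.468 ± 0.339) and PDF2.1 (0.200 ± 0.0395). In WT the ranges of neighbours met for PDF1.2C and PDF1.2A and for PDF1.4 and PDF2.1.

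The 3 weakest genes gave no contrast that could be read. PDF1.1, first known from seeds, was listed at 0 in all 6 libraries, as were 244 of the 22759 rows. A count of 0 allows up to 0.119 to 0.150 CPM in an hrlp-2 library and 0.127 to 0.136 CPM in a WT library, taking 3 reads as the limit. PDF1.4 measured 0.08, 0.30 and 0.28 CPM in the hrlp-2 libraries, against 0.38, 0.44 and 0.05 CPM in the WT libraries. PDF2.1 measured 0.24, 0.05 and 0.05 CPM in the hrlp-2 libraries, against 0.13, 0.13 and 0.09 CPM in the WT libraries. The groups overlapped for PDF1.4 and PDF2.1, none of the 3 entered the fit, and a difference was not detectable at this depth.

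Because the class 2 genes are so much more abundant, the sum of all 9 rows hid the class 1 difference. It was 245.7 ± 4.01 CPM in hrlp-2 and 253.6 ± 14.3 CPM in WT (SD, n = 3 each), and the groups overlapped. The 4 class 1 genes of the tandem pairs made up 1.01%, 1.46% and 0.692% of that sum in the hrlp-2 libraries and 14.9%, 14.5% and 14.0% in the WT libraries. The class 2 sum was 98.4, 67.3 and 143.5 times the 4-gene sum in the hrlp-2 libraries and 5.70, 5.89 and 6.16 times in the WT libraries. This ratio within a library does not depend on the library's scaling.

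Of the 6 defensin rows in the fit, 4 (PDF1.2A, PDF1.2B, PDF1.2C and PDF1.3) were past the threshold of 0.05 on the limma adjusted p and lower in hrlp-2, where 9.31% of the 18643 rows were called lower. The other 2 (PDF2.2 and PDF2.3) were past it and higher, where 11% of the rows were called higher and 20.4% were called in either direction. The groups did not overlap for these 6 rows, which held for 33.8% of all rows tested, 16.2% lower and 17.6% higher. A log2 fold change at or under -1 was reached by 41 rows, 0.22% of those tested, and these include the 4 class 1 genes. The defensin genes were chosen with this contrast in view, so nothing is read from these counts or from their place among the 41 rows.

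Transcripts of the tissues that the samples could also hold were at low levels. The 6 root markers, of which 5 had a row, summed to 0.25 to 0.87 CPM in hrlp-2 and 0.30 to 0.62 CPM in WT, with CASP2 and CASP4 at 0 in all libraries. The 7 seed markers, of which 2 had a row, summed to 0.04 to 0.18 CPM in hrlp-2 and 0.04 to 0.49 CPM in WT. The 4 flower markers summed to 0.68 to 1.35 CPM in hrlp-2 and 1.64 to 2.42 CPM in WT, and AP1 was at 0 in all libraries. AP3 measured 0.16, 0.35 and 0.00 CPM in hrlp-2 and 0.13, 0.18 and 0.05 CPM in WT, and AG measured 0.12, 0.45 and 0.32 CPM in hrlp-2 and 0.38, 0.13 and 0.41 CPM in WT, so both overlapped between the groups. PI, a floral organ identity gene, measured 0.40, 0.55 and 0.64 CPM in hrlp-2 and 1.91, 1.82 and 1.18 CPM in WT (limma adjusted p = 0.00105), and the part of floral tissue in the defensin values was not tested. The leaf gene RBCS1A, a Rubisco small subunit, marked the samples as green tissue, at 15980 CPM in hrlp-2 and 15340 CPM in WT (limma adjusted p = 0.000183). LHCB2.1, a light-harvesting protein gene, measured 1137 ± 15.8 CPM in hrlp-2 and 1107 ± 30.1 CPM in WT (SD, n = 3 each, limma adjusted p = 0.0398), and it did not pass under 8 of the alternatives (0.0539 to 0.233), among them 3 other scalings and leaving out WT replicate 2, WT replicate 3, hrlp-2 replicate 1 or hrlp-2 replicate 2.

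The known regulators of PDF1.2 and the marker genes of its branch were examined next, from lists of 49 genes with 47 rows, of which 41 entered the fit. Among these 41, 15 rose and 4 fell in hrlp-2, and 22 did not pass, where 11% and 9.31% of all rows were called higher and lower. The median log2 fold change was 0.12, against 0.002 over all rows tested. Leaving out single libraries gave 11 to 16 higher and 3 to 4 lower.

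Of 15 tested activators of PDF1.2, 6 rose and 1 fell, where 11% and 9.31% of all rows were called higher and lower. Their median log2 fold change was 0.12. ERF104, an ethylene response factor that is a substrate of the kinase MPK6, rose most, to 13.42, 13.29 and 13.86 CPM in the hrlp-2 libraries, against 7.06, 6.70 and 6.61 CPM in the WT libraries (log2 fold change 0.96, SE 0.0957, limma adjusted p = 2.87e-09). The related factors ERF5 (3.72 CPM in hrlp-2 and 2.17 CPM in WT, adjusted p = 0.00269) and ERF6 (3.14 CPM in hrlp-2 and 1.95 CPM in WT, adjusted p = 0.0116) rose as well, ERF6 no longer passing without WT replicate 2 (adjusted p = 0.0756). WRKY33, which is needed for resistance to necrotrophic fungi, rose to 9.36 CPM in hrlp-2, against 6.17 CPM in WT (adjusted p = 0.000268).

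EIN2, EIN3 and EIL1, of the upstream part of the ethylene pathway, moved little. EIN3, the central transcription factor of ethylene signalling, was at 97.32, 107.85 and 96.96 CPM in hrlp-2 and 92.33, 86.52 and 92.88 CPM in WT (log2 fold change 0.17, limma adjusted p = 0.0026, and 0.0528 without hrlp-2 replicate 2). EIN2, the membrane protein above it, had a log2 fold change of 0.12 (adjusted p = 0.0381) that did not pass when any library but WT replicate 2 was left out (adjusted p = 0.0567 to 0.151), nor with upper-quartile scaling (0.0613) or CPM not rescaled (0.101). EIL1, the close relative of EIN3, did not pass (105.5 CPM in hrlp-2 and 107.9 CPM in WT, adjusted p = 0.862). Among the other activators, MED8, a subunit of the Mediator complex, fell to 10.79 CPM in hrlp-2, against 14.39 CPM in WT (log2 fold change -0.38, adjusted p = 0.00256).

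ORA59 and ERF1, the factors through which EIN3 is known to act on PDF1.2, were at low levels. ORA59 (row ERF094) measured 2.66, 4.15 and 3.78 CPM in the hrlp-2 libraries, against 2.13, 3.46 and 2.31 CPM in the WT libraries. Its groups overlapped and it did not pass (log2 fold change 0.39, SE 0.178, limma adjusted p = 0.132). It passed without WT replicate 2 (adjusted p = 0.0454) or without hrlp-2 replicate 1 (0.0398), in each case with a higher level in hrlp-2. ERF1B, the gene usually called ERF1, measured 0.04, 0.00 and 0.05 CPM in hrlp-2 and 0.04, 0.22 and 0.00 CPM in WT and did not enter the fit.

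Of 17 tested repressors, 6 rose and 0 fell, where 11% and 9.31% of all rows were called higher and lower. Their median log2 fold change was 0.14, and 11 did not pass. WRKY70, which promotes salicylic acid responses and represses PDF1.2, rose to 49.91, 52.55 and 53.87 CPM in the hrlp-2 libraries, against 32.37, 32.29 and 32.50 CPM in the WT libraries (log2 fold change 0.70, limma adjusted p = 1.1e-12). EBF2, an F-box protein that targets EIN3 for degradation, rose to 48.27 CPM in hrlp-2, against 40.77 CPM in WT (adjusted p = 0.000296). The JAZ proteins block jasmonate responses, and JAZ3 (row TIFY6B) rose to 11.99 CPM in hrlp-2, against 9.4 CPM in WT (adjusted p = 0.00632).

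The other 3 repressors past the threshold depended on single libraries. JAZ1 (row TIFY10A) was at 7.91 CPM in hrlp-2 and 6.15 CPM in WT (limma adjusted p = 0.0202) and did not pass without WT replicate 1 (0.0772) or without hrlp-2 replicate 3 (0.0701). NPR1, a salicylic acid receptor, was at 30.41 CPM in hrlp-2 and 26.99 CPM in WT (adjusted p = 0.0216) and did not pass without WT replicate 2 (0.135), hrlp-2 replicate 1 (0.119) or hrlp-2 replicate 3 (0.051). NINJA (row AFPH2), which ties JAZ proteins to a corepressor, was at 49.13 CPM in hrlp-2 and 45.01 CPM in WT (adjusted p = 0.0202) and did not pass without WT replicate 1, WT replicate 2, hrlp-2 replicate 1 or hrlp-2 replicate 3 (0.0502 to 0.0726), nor with CPM not rescaled (0.0508). MYC2, the head of the opposing jasmonate branch, measured 10.22, 5.86 and 7.90 CPM in hrlp-2 and 6.78, 4.36 and 7.22 CPM in WT. It did not pass (log2 fold change 0.37, adjusted p = 0.0882), and it passed with the replicate number as a block (0.0235), without WT replicate 3 (0.0407) or without hrlp-2 replicate 2 (0.013).

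**Figure D5:**
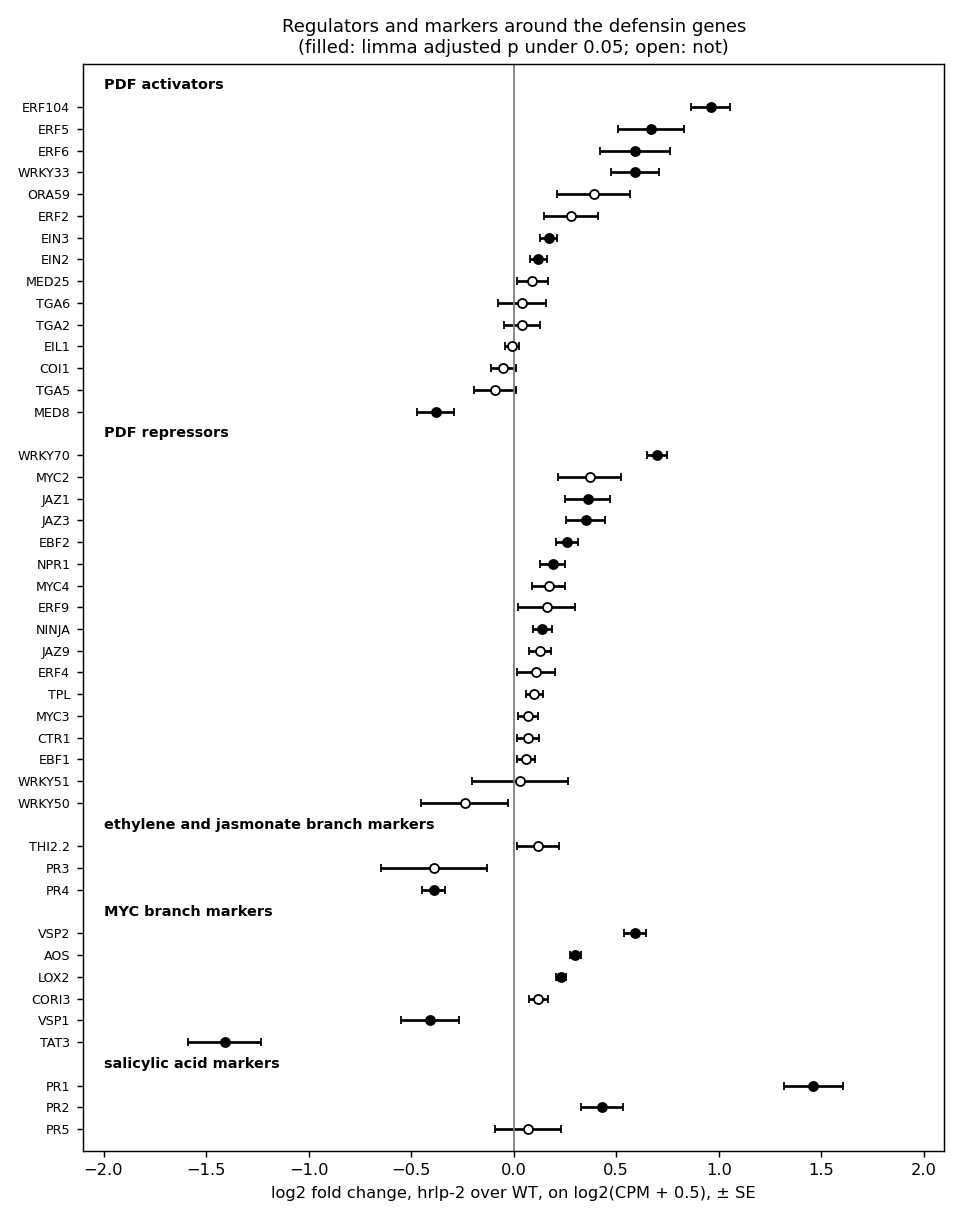
Log2 fold change of hrlp-2 over WT on log2(CPM + 0.5), with its SE, for the tested regulators of PDF1.2 and the markers of 3 pathway branches; filled points passed the limma adjusted p threshold of 0.05 and open points did not. ERF104 at 0.96, WRKY70 at 0.70 and PR1 at 1.46 lie farthest to the right in their lists, and TAT3 at -1.41 lies farthest to the left of all.

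Among 3 tested markers of the jasmonate and ethylene branch, 0 rose and 1 fell. Over all rows, 11% were called higher and 9.31% lower. The median log2 fold change of the 3 markers was -0.39. PR4 (row HEL), a hevein-like protein often measured beside PDF1.2, fell to 32.16, 35.32 and 38.76 CPM in the hrlp-2 libraries, against 47.08, 47.72 and 46.53 CPM in the WT libraries (log2 fold change -0.39, SE 0.0549, limma adjusted p = 2.04e-06). PR3 (row CHI-B), a basic chitinase, measured 0.343 ± 0.156 CPM in hrlp-2 and 0.603 ± 0.0651 CPM in WT and did not pass (adjusted p = 0.318). The thionin gene THI2.2 measured 9.56 CPM in hrlp-2 and 8.86 CPM in WT, with the opposite sign (log2 fold change 0.12, adjusted p = 0.457), and did not pass. The thionin gene THI2.1 measured 0.04, 0.00 and 0.00 CPM in hrlp-2 and was at 0 in the WT libraries, and it did not enter the fit.

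Of 6 tested markers of the MYC branch, 3 rose and 2 fell, where 11% and 9.31% of all rows were called higher and lower. Their median log2 fold change was 0.18. VSP2, a vegetative storage protein gene, rose to 51.45 CPM in hrlp-2, against 34.48 CPM in WT (limma adjusted p = 3.35e-10). AOS (row CYP74A) and LOX2, which encode early enzymes of jasmonate synthesis, rose to 224.9 and 572.9 CPM in hrlp-2, against 184.9 and 495.0 CPM in WT (adjusted p = 6.11e-10 and 2.46e-09). TAT3, a tyrosine aminotransferase gene, fell to 1.67, 1.1 and 1.06 CPM in the hrlp-2 libraries, against 4.25, 4.43 and 4.03 CPM in the WT libraries (log2 fold change -1.41, adjusted p = 2.34e-07). VSP1 fell to 4.44 CPM in hrlp-2, against 6.04 CPM in WT (adjusted p = 0.0378), and did not pass without hrlp-2 replicate 3 (0.281) or without any 1 of the WT libraries (0.0681 to 0.115), nor without a filter on low values (0.11).

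Of 3 tested markers of the salicylic acid pathway, 2 rose and 0 fell, where 11% and 9.31% of all rows were called higher and lower, and their median log2 fold change was 0.43. PR1, the standard marker of that pathway, rose to 6.47, 7.44 and 6.68 CPM in the hrlp-2 libraries, against 1.96, 2.53 and 2.17 CPM in the WT libraries (log2 fold change 1.46, limma adjusted p = 2.58e-09). PR2 (row BGL2), a glucanase gene, rose to 11.13 CPM in hrlp-2, against 8.24 CPM in WT (adjusted p = 0.00274), and PR5 did not pass (3.30 CPM in hrlp-2 and 3.14 CPM in WT, adjusted p = 0.814).

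The nearest tested gene on each side of each defensin locus or cluster was sought among rows matched to a locus. Distances ran from 261 bases (AT1G19600) to 13901 bases (AT5G44410), and rows without a locus could lie nearer. Of these 10 genes, 2 rose and 0 fell, where 11% and 9.31% of all rows were called higher and lower. Beside the chromosome 5 pair, AT5G44410 measured 27.84 CPM in hrlp-2 and 23.46 CPM in WT (limma adjusted p = 0.00227) and AT5G44450 had a log2 fold change of -0.06 (adjusted p = 0.639). Beside the chromosome 2 pair, BRIZ2 had a log2 fold change of -0.01 (adjusted p = 0.98) and AT2G26030 one of -0.21 (adjusted p = 0.105), at 10.91 CPM in hrlp-2 and 12.86 CPM in WT. The neighbours of the class 2 cluster, ETL1 and AT2G02148, had log2 fold changes of -0.06 and -0.03 (adjusted p = 0.63 and 0.892). CLV1, a receptor kinase of the shoot meristem beside PDF1.1, rose to 39.82 CPM in hrlp-2, against 34.51 CPM in WT (adjusted p = 0.00225), while ARAC5 on its other side did not pass (0.193). Beside PDF1.4, AT1G19600 and AT1G19620 had log2 fold changes of 0.01 and -0.06 (adjusted p = 0.904 and 0.918).

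The rows whose profile over the 6 libraries was most like that of the 4-gene sum were found by the root mean square distance of centred log2 values. The closest was AT2G08480.1, at a distance of 0.61, against a median of 1.83 over all rows. It averaged 0.0633 CPM in hrlp-2 and 3.11 CPM in WT. The next were AT1G55673 (distance 0.93, 34.47 CPM in hrlp-2 and 151.6 CPM in WT), AT5G43725.2 (1.0, 0.05 CPM in hrlp-2 and 1.23 CPM in WT), AT3G51075.5 (1.05, 0.0867 CPM in hrlp-2 and 1.89 CPM in WT) and NATA1, an N-acetyltransferase gene (1.07, 0.217 CPM in hrlp-2 and 1.49 CPM in WT). Of these 5 rows, AT1G55673 alone was above 5 CPM in WT. The profile of the 4-gene sum is mostly its step between the groups, so a row that did not change lies near the median distance. The ranking thus picks rows that were much lower in hrlp-2, and no further likeness is read from it.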

How the data were processed

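RNA sequencing of 3 hrlp-2 and 3 WT libraries was used, grouped by sample title. Libraries were made with a strand-marking kit, per the labels' protocols; STAR 2.7.3a and TAIR10 are named in the submitters' processing notes, and no source used here gives the counter, its strand setting or the annotation. The authors deposited 1 table of CPM per library, with column sums of 1000000.45 to 1000007.79. Reads were estimated from the spacing of values under 2 CPM, of which 88.0% to 89.5% lay on whole-read steps, against 20.4% to 25.7% by chance; too few came out whole for a count model. 1 row without a name was left out.

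The CPM were scaled by trimmed mean of M-values (30% of M and 5% of A values trimmed), 0.5 CPM was added and log2 taken. Rows that reached 0.5 CPM in 3 or more libraries were tested with limma 3.58.1 in R 4.3.3 (intensity trend, two-sided, Benjamini-Hochberg over 18643 rows). On simulated reads with a fixed dispersion of 0.003, it recovered 47 of 50 genes changed 1.5-fold and 12 of 50 changed 1.2-fold. Small changes can therefore be missed. The changed genes were drawn from tested rows averaging at least 2 CPM, so recovery of weaker rows was not measured. P-values and SEs measure the spread between these libraries after limma drew it toward that of rows at a like level. The SE of a gene can therefore be smaller or larger than its own replicates alone would give. The members and lists were chosen with earlier results of these data known. The genes named are the 9 defensins, HRLP, each list member past the threshold, ORA59, ERF1B, EIN3, EIL1, MYC2, PR3, PR4, THI2.1 and PR1, the nearest tested row on each side of each defensin locus and the 5 most like profiles; PR5, THI2.2, CORI3, AP1, AP3, AG, CASP2, CASP4, PDF1.5, SCRL7 and LCR50 were named after their values were seen. Rows were matched to loci by name through RefSeq TAIR10.1 (19342 of 22759); ORA59, NINJA, RBCS1A, GRXC9 and ERF1B were matched by hand. Sequences came from the TAIR10.1 genome and annotation of RefSeq, since no promoter table was at hand. Same-numbered libraries did not deviate together (correlations of -0.026 to -0.008), so the numbers were not taken as pairs.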

Additional observations from a re-analysis of the deposited data

How the results depend on the processing

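The 6 tested defensins kept their direction under the 15 alternatives that gave each of them a value. Their log2 fold changes ran from -3.57 to -2.68 (PDF1.2A), -2.81 to -1.49 (PDF1.2B), -5.12 to -3.27 (PDF1.2C), -3.84 to -2.55 (PDF1.3), 0.18 to 0.26 (PDF2.2) and 0.09 to 0.14 (PDF2.3). Counting the 4 class 1 genes of the tandem pairs as 1 row, a further alternative, gave -3.61, outside those ranges for PDF1.2A and PDF1.2B. The log2 ratio of the 4-gene sum was -3.41 with a pseudocount of 1, against -3.87 with none, and ran from -4.15 to -3.60 without single libraries, that of the class 2 sum from 0.15 to 0.22.

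With the replicate number as a block, 2057 rows were higher and 1727 lower, against 2059 and 1735. Besides MYC2, CORI3 (adjusted p = 0.0467) and SCRL7 (0.0469) passed under the block, and it changed no other named call. Leaving out 1 library gave 1617 to 1861 higher and 1352 to 1477 lower. Of all calls, 54.3% were higher, 49.7% with upper-quartile scaling and 44.6% with CPM not rescaled.

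Uncalled values changed sign as follows. Without single libraries, EIL1 ran from -0.03 to 0.01, PR5 from -0.04 to 0.19, PDF1.5 from -0.20 to 0.22, BRIZ2 from -0.06 to 0.09, ETL1 from -0.10 to 0.02, AT1G19600 from -0.06 to 0.06 and AT1G19620 from -0.45 to 0.03. AT1G19600 was -0.01 with CPM not rescaled, and AT1G19620 was 0.22 with limma-voom and 0.07 with a pseudocount of 0.1. The causes were not tested. Depth limits PDF1.1, PDF1.4 and PDF2.1.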

Other observations

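Of 10 other defensin-like genes listed, 5 had a row and 3 entered the fit (median log2 fold change 0.06), and 0 of these passed (limma adjusted p of 0.0538 to 0.892), where 20.4% of all rows were called in either direction. PDF1.5 (AT1G55010, chromosome 1, 20516916 to 20517531 on the plus strand), 69.5% to 71.5% identical to the 4 low class 1 genes in coding sequence, measured 1.83, 1.3 and 2.3 CPM in the hrlp-2 libraries, against 2.08, 1.06 and 2.17 CPM in the WT libraries. The groups overlapped, and it did not pass (log2 fold change 0.06, SE 0.215, limma adjusted p = 0.892). Its promoter window held a GCC box with its first base 18 bases before the annotated start. SCRL7, of the defensin-like family related to pollen self-recognition proteins, measured 6.37 ± 0.980 CPM in hrlp-2 and 4.90 ± 0.711 CPM in WT (SD, n = 3 each, limma adjusted p = 0.0538). It passed without WT replicate 2 (adjusted p = 0.0325) or without hrlp-2 replicate 3 (0.0178), with a filter of 1 CPM (0.0486) and with the replicate number as a block (0.0469). LCR50, a low-molecular-weight cysteine-rich gene, measured 0.390 CPM in hrlp-2 and 0.553 CPM in WT (adjusted p = 0.603).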
